A study of Rattus norvegicus with 36 samples.

Results

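Integrins and laminins are the proteins through which a cell holds on to the matrix around it. The RNA of their genes was followed in H9C2 cells, a myoblast line from the embryonic rat heart, transfected with miR-125b or with forms of it altered at the 3′ end. Members were taken by gene name among protein-coding genes: every *Itga* or *Itgb* followed by a digit, the letter-named subunits *Itgal*, *Itgam*, *Itgae*, *Itgav* and *Itgax*, and every *Lama*, *Lamb* or *Lamc* followed by a digit. This gave 37 of the 24275 genes listed, of which 18423 are protein coding. Of these, 10 encode laminin chains and 6 (*Itgal*, *Itgam*, *Itgax*, *Itgae*, *Itgb2* and *Itgb7*) were set apart as leukocyte integrin subunits. Another 18 encode the other integrin subunits (13 alpha and 5 beta), which are not thereby absent from leukocytes. The remaining 3, *Itgb1bp1*, *Itgb1bp2* and *Itgb3bp*, share the names but encode proteins that bind integrins, and are counted with the members and also apart.

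Counts of 33 libraries in 11 groups of 3 were used. Every group carried a synthetic RNA at 25 nmol/L for 24 h: a mimic control (MC), the unchanged miR-125b, or one of 4 isomiRs, called Plus A, Trim A, Trim AG and (the shortest) Trim AGU after the bases added to or removed from the 3′ end. Hypoxia groups then spent 24 h at an oxygen level below 0.2% in serum-free, low-glucose medium, and normoxia groups stayed in fresh medium, so that oxygen and medium cannot be told apart in any comparison between them. All groups are of 1 cell line, untransfected cells were not analysed here, and nothing in the labels says that the 3 libraries of a group come from separate cultures. The p-values therefore measure the spread between these libraries, which may be technical. Single libraries of Normoxia MC were not analysed here, and that group enters only as the authors' mean.

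An integrin is a pair of 1 alpha and 1 beta chain that spans the membrane and joins the matrix outside to talin, kindlin and actin inside. The beta chain encoded by *Itgb1* pairs with most alpha chains, and the alpha chain sets the ligand: laminin, collagen, or fibronectin and other proteins read through an RGD motif. Laminins are trimers of 1 alpha, 1 beta and 1 gamma chain and form the sheet of the basement membrane that surrounds muscle cells. In muscle, the integrin that contains the *Itga7* chain and the dystrophin–glycoprotein complex are the main laminin receptors.

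The 5 mimics are shown because they differ only at the 3′ end, and some members below were called between some of them. Capitals mark the seed, bases 2 to 8 counted from the 5′ end, which pairs with target RNA and is the same in all 5. The 22 bases of miR-125b are those of rno-miR-125b-5p in RefSeq (GRCr8), and the isomiRs are derived from it by the labelled change.
miR-125b: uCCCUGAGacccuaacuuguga
Plus A: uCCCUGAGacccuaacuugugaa
Trim A: uCCCUGAGacccuaacuugug
Trim AG: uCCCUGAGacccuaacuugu
Trim AGU: uCCCUGAGacccuaacuug

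Libraries held 28361216 to 42672584 counts, with a median of 29923694. The deepest were those of Hypoxia Trim AG, at 41306881, 39940087 and 42672584 counts, and no library of another group exceeded 34505938. Depth and mimic cannot be told apart for that group, and the part of depth in its results was not tested. Libraries of 2 further kinds stood apart. In normoxia, replicate 1 of Plus A and replicate 1 of miR-125b each resembled the other group: *Cav1*, which encodes caveolin, was at 269, 98.0 and 98.3 counts scaled to a common library total (CPM) in Normoxia Plus A and at 102, 282 and 263 CPM in Normoxia miR-125b, against 93.9 to 100.2 CPM in Hypoxia Plus A and 241 to 246 CPM in Hypoxia miR-125b. In hypoxia, replicates 2 and 3 of Trim A, Trim AG and Trim AGU held less signal from long genes: the median log2 level of genes of at least 5000 bases less that of genes of at most 2000 bases was -0.94 to -0.22 in these 6 libraries and -0.11 to 0.39 in the other 27. Replicate 2 of Hypoxia Trim AGU was the most extreme, at -0.94. It held counts in 16981 genes, against 18663 and 18455 in replicates 1 and 3 of its group. The muscle label held for *Myod1* (17.1 to 146 CPM) and *Myog* (10.4 to 359 CPM), while *Des*, which encodes the muscle filament desmin, was at 0.85 to 4.98 CPM. Of 5 fibroblast markers, the collagen genes *Col1a1* and *Col1a2* were at 5403 to 27700 and 772 to 4542 CPM and *Thy1* at 79.8 to 261 CPM, while *Dcn* was at 0.80 to 44.2 CPM and *Pdgfra* at 0.03 to 0.85 CPM. The epithelial markers *Epcam*, *Cdh1*, *Krt18* and *Cldn4* did not exceed 0.51 CPM and endothelial *Tek* was at 0.69 to 4.46 CPM. The sum of 7 muscle markers was 1129 to 1136 CPM in Hypoxia MC and 158 to 334 CPM in the other 10 groups. These are bulk samples, in which fewer cells of a type and less RNA per cell cannot be told apart.

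The beta chain that most integrins share was the most abundant member. On the scale of the authors' FPKM, a count scaled by gene length and library total, which allows genes to be compared, *Itgb1* had the highest median over the 33 libraries at 444 FPKM. The gamma chain gene *Lamc1* followed at 137, then the collagen receptor gene *Itga11* at 85.1, *Lamb1* at 78.8, the fibronectin receptor gene *Itga5* at 71.5, *Itgb1bp1* at 63.6, *Lama5* at 62.0, *Itgav* at 55.2, *Lamb2* at 49.1 and the laminin receptor gene *Itga3* at 36.3 FPKM. *Lama4* and *Itga7* were both at 20.4 FPKM and *Itga6* at 16.9. In 30 of the 37 members at least 1 group had a mean over 1 CPM. *Itga2*, *Itgb2*, *Lama1* and *Lamc3* were too low to be tested anywhere, with at most 9, 2, 3 and 6 counts in a library.

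**Figure D1:**
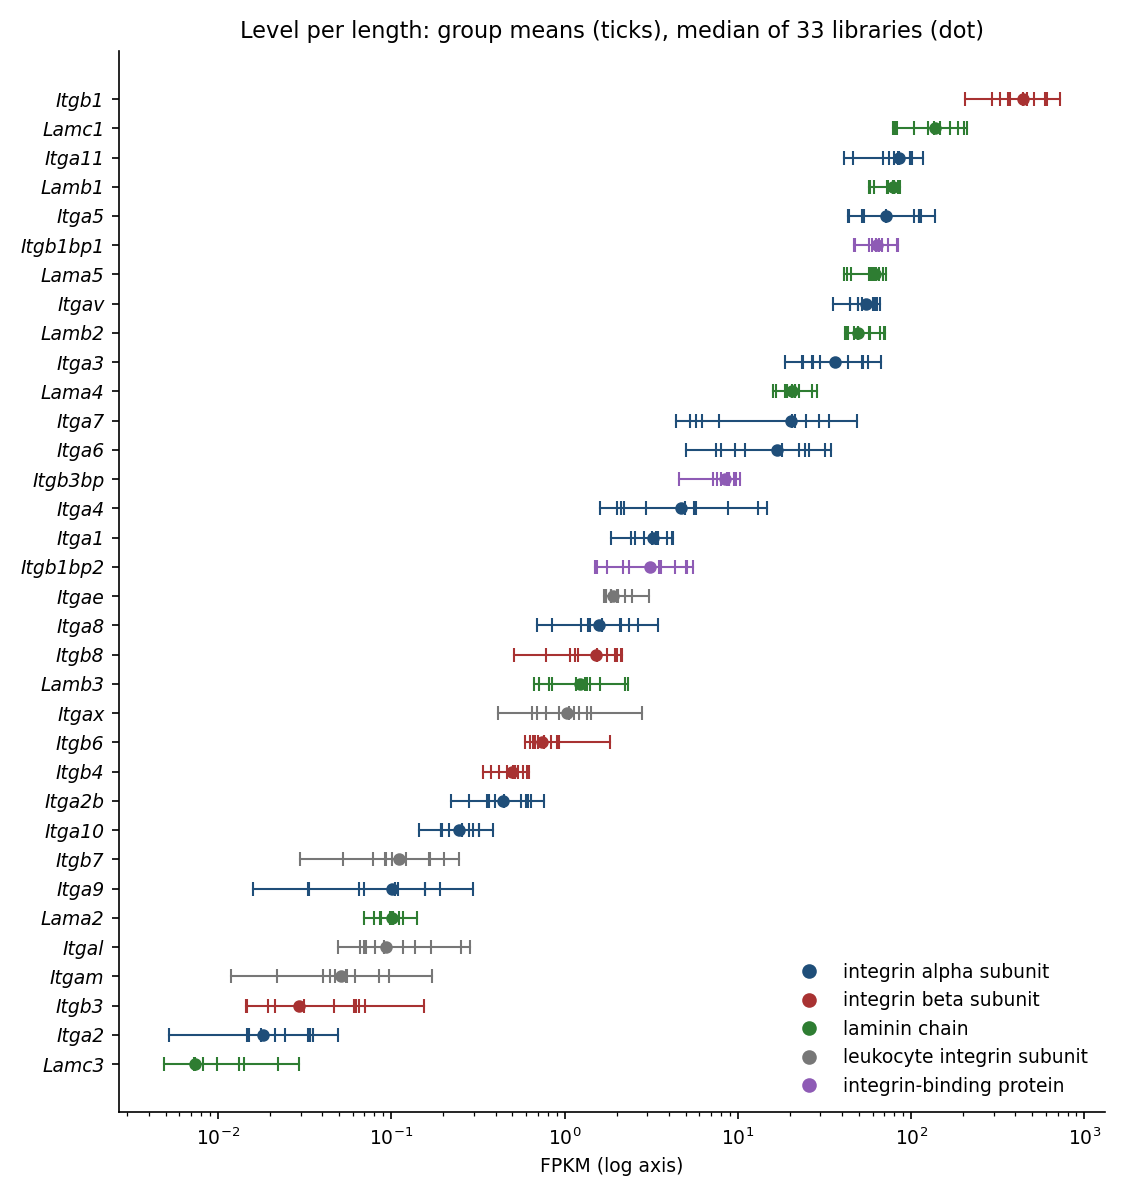
Level of the members in FPKM on a logarithmic axis, with 1 tick for the mean of each of the 11 groups and a dot for the median over 33 libraries; group means of 0, *Itgb2* and *Lama1* are among what is not drawn. *Itgb1* stands highest at a median of 444 FPKM, and the laminin chains *Lamc1*, *Lamb1*, *Lama5* and *Lamb2* lie between 49.1 and 137 FPKM.

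The study asked whether the 3′ end of miR-125b alters what it does to these cells, so each mimic was set against MC in hypoxia and each isomiR against miR-125b at the same oxygen. A gene was called at an adjusted p below 0.05 (edgeR's quasi-likelihood test with Benjamini-Hochberg adjustment over all genes tested) and a fold change of at least 1.5, and "rose", "fell", "higher" and "lower" with a test are used of called genes. Of the 37 members, 33 were tested in at least 1 of 18 comparisons, 28 in all 18, and 27 were called at least once. Members had to have enough counts in some group to be tested, so a member that reached this in 1 group alone could be called only as higher there. *Itgae*, *Itgav*, *Itgb3*, *Lama2*, *Lama5* and *Lamb1* were tested and never called.

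Against MC in hypoxia, the chains of laminin receptors *Itga6* and *Itga7* fell with all 5 mimics, as did *Itga4*, *Itgb6*, *Itgax* and *Itgb1bp2*, whereas *Itgb1* fell with miR-125b and Plus A. *Itgb3bp* rose with all 5 and *Lamc1* with miR-125b and Plus A. With miR-125b 5 of 32 members tested rose and 10 fell, while 9.43% of all genes tested rose and 12.5% fell. With Plus A 7 of 33 rose and 10 fell, against 10.5% and 14.4% of all genes. With Trim A 1 of 32 rose and 10 fell (12.4% and 15.7% of all genes). With Trim AG 4 of 32 rose and 10 fell (17.0% and 20.2%), and with Trim AGU 2 of 32 rose and 12 fell (11.4% and 12.4%). The share of members that fell was above that of all genes in each, and the median log2 fold change of the members was -0.03, -0.17, -0.26, -0.42 and -0.47 in the same order, where that of all genes was between -0.02 and 0.00325. These 5 comparisons share the same 3 MC libraries and are not independent of each other. The last 3 medians use trimmed mimics, whose replicates 2 and 3 in hypoxia held less signal from long genes. The part of this in the medians and shares was not tested.

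Between the isomiRs and miR-125b, *Itgb1* was higher with Trim A, Trim AG and Trim AGU at both oxygen levels. In hypoxia, Plus A had 2 of 31 members higher, *Itga1* and *Itgb8*, and 1 lower, *Lamb3* (0.707% and 1.32% of all genes), and Trim A had 1 of 31 higher and 0 lower (0.457% and 0.417%). Trim AG had 3 of 31 higher and 8 lower (7.85% and 11.5%), and Trim AGU had 1 of 30 higher and 0 lower (1.83% and 1.93%). Replicate 2 of Hypoxia Trim AGU lay far from the rest of its group, which widens the spread in that test. At an unadjusted p below 0.05 it had 9 members and 3691 of 15051 genes. The low count of calls therefore does not measure how near Trim AGU was to miR-125b. In normoxia, Trim A had 1 of 30 higher and 0 lower (0.367% and 0.0475%), Trim AG 6 of 29 higher and 0 lower (7.58% and 6.36%), and Trim AGU 3 of 29 higher and 1 lower (6.22% and 5.16%). Plus A against miR-125b in normoxia called 0 of 30 members and 0% of all genes with edgeR, and DESeq2 called 0 members. At an unadjusted p below 0.05 there were 0 members and 404 of 14781 genes. Both groups of that comparison hold a library that stands apart.

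Of the Plus A calls against miR-125b in hypoxia, *Itgb8* (0.81 ± 0.21, adjusted p = 0.0337) did not hold without replicate 2 or 3 of Hypoxia Plus A (0.074 and 0.070) or replicate 1 or 3 of Hypoxia miR-125b (0.073 and 0.104). *Lamb3* (-0.67 ± 0.14, adjusted p = 0.0125) had an adjusted p of 0.058 when replicate 3 of Hypoxia miR-125b was left out and a value of -0.55 when replicate 1 of Hypoxia Plus A was. The normoxia members higher with Trim AG were *Itgb1*, *Itga4*, *Itga7*, *Itga9*, *Lamb3* and *Itgb1bp2*, and those higher with Trim AGU were *Itgb1*, *Itga4* and *Itga7*. *Itgb4* was lower with Trim AGU (-0.77 ± 0.20, adjusted p = 0.021), which did not hold without replicate 2 or 3 of Normoxia miR-125b (0.061 and 0.083) or replicate 3 of Normoxia Trim AGU (0.065).

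Among the 11 members called between Trim AG and miR-125b in hypoxia were *Itgb1* and *Itgam*, which were higher, and *Itga2b*, *Itga6*, *Itga10*, *Itga11*, *Itgb8*, *Lama4*, *Lamb3* and *Lamc1*, which were lower. The difference was -0.65 ± 0.20 for *Lamc1* (adjusted p = 0.0328), and it was -0.55 with the gene length trend removed and -0.44 without replicate 2 of Hypoxia Trim AG, both under the fold threshold. That call also did not hold without any 1 of the miR-125b libraries (adjusted p = 0.082 to 0.086) or without replicate 3 of Hypoxia Trim AG (0.099). For *Lama4* it was -0.70 ± 0.16 (adjusted p = 0.00983) and -0.54 without the same library. For *Itga10* it was -1.16 ± 0.40 (adjusted p = 0.0475), and the call did not hold without any 1 of the miR-125b libraries (0.097 to 0.13) or without replicate 2 or 3 of Hypoxia Trim AG (0.052 and 0.13). For *Itga2b* it was -0.78 ± 0.22 (adjusted p = 0.0236), and the call did not hold without replicate 1 or 2 of Hypoxia miR-125b (0.053 and 0.1) or replicate 3 of Hypoxia Trim AG (0.084).

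Hypoxia was set against normoxia under each mimic. *Itga3*, *Itga4*, *Itga5*, *Itga6*, *Itga7*, *Lamc1* and *Itgb1bp2* were lower in hypoxia under all 5 mimics. With miR-125b 3 of 30 members were higher and 12 lower (9.34% and 11.5% of all genes), and with Plus A 4 of 31 higher and 9 lower (10.0% and 12.8%). With Trim A 3 of 32 were higher and 13 lower (12.0% and 14.5%), with Trim AG 2 of 32 higher and 13 lower (15.0% and 17.8%), and with Trim AGU 2 of 29 higher and 11 lower (13.6% and 13.4%). In each of the 5, the share of members that were lower exceeded the share of all genes. The share that were higher was close to that of all genes with miR-125b and Plus A and did not exceed it with the trimmed mimics.

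Of 104 member calls that use the trimmed mimics in hypoxia, 96 held and 8 were lost with the gene length trend removed, and none turned its direction. The losses are given with each member and interaction, apart from *Itgb6* between hypoxia and normoxia under Trim AG, which went from -0.62 to -0.44 (adjusted p = 0.054). Of 47 calls that use Normoxia Plus A or Normoxia miR-125b, 44 held without replicate 1 of both groups and 3 were lost. Beside *Itgb1* between hypoxia and normoxia under miR-125b, *Itgb1bp2* between Trim AG and miR-125b in normoxia went from 0.62 to 0.48, and *Itgb8* between hypoxia and normoxia under miR-125b from -0.77 to -0.63 (adjusted p = 0.09).

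**Figure D2:**
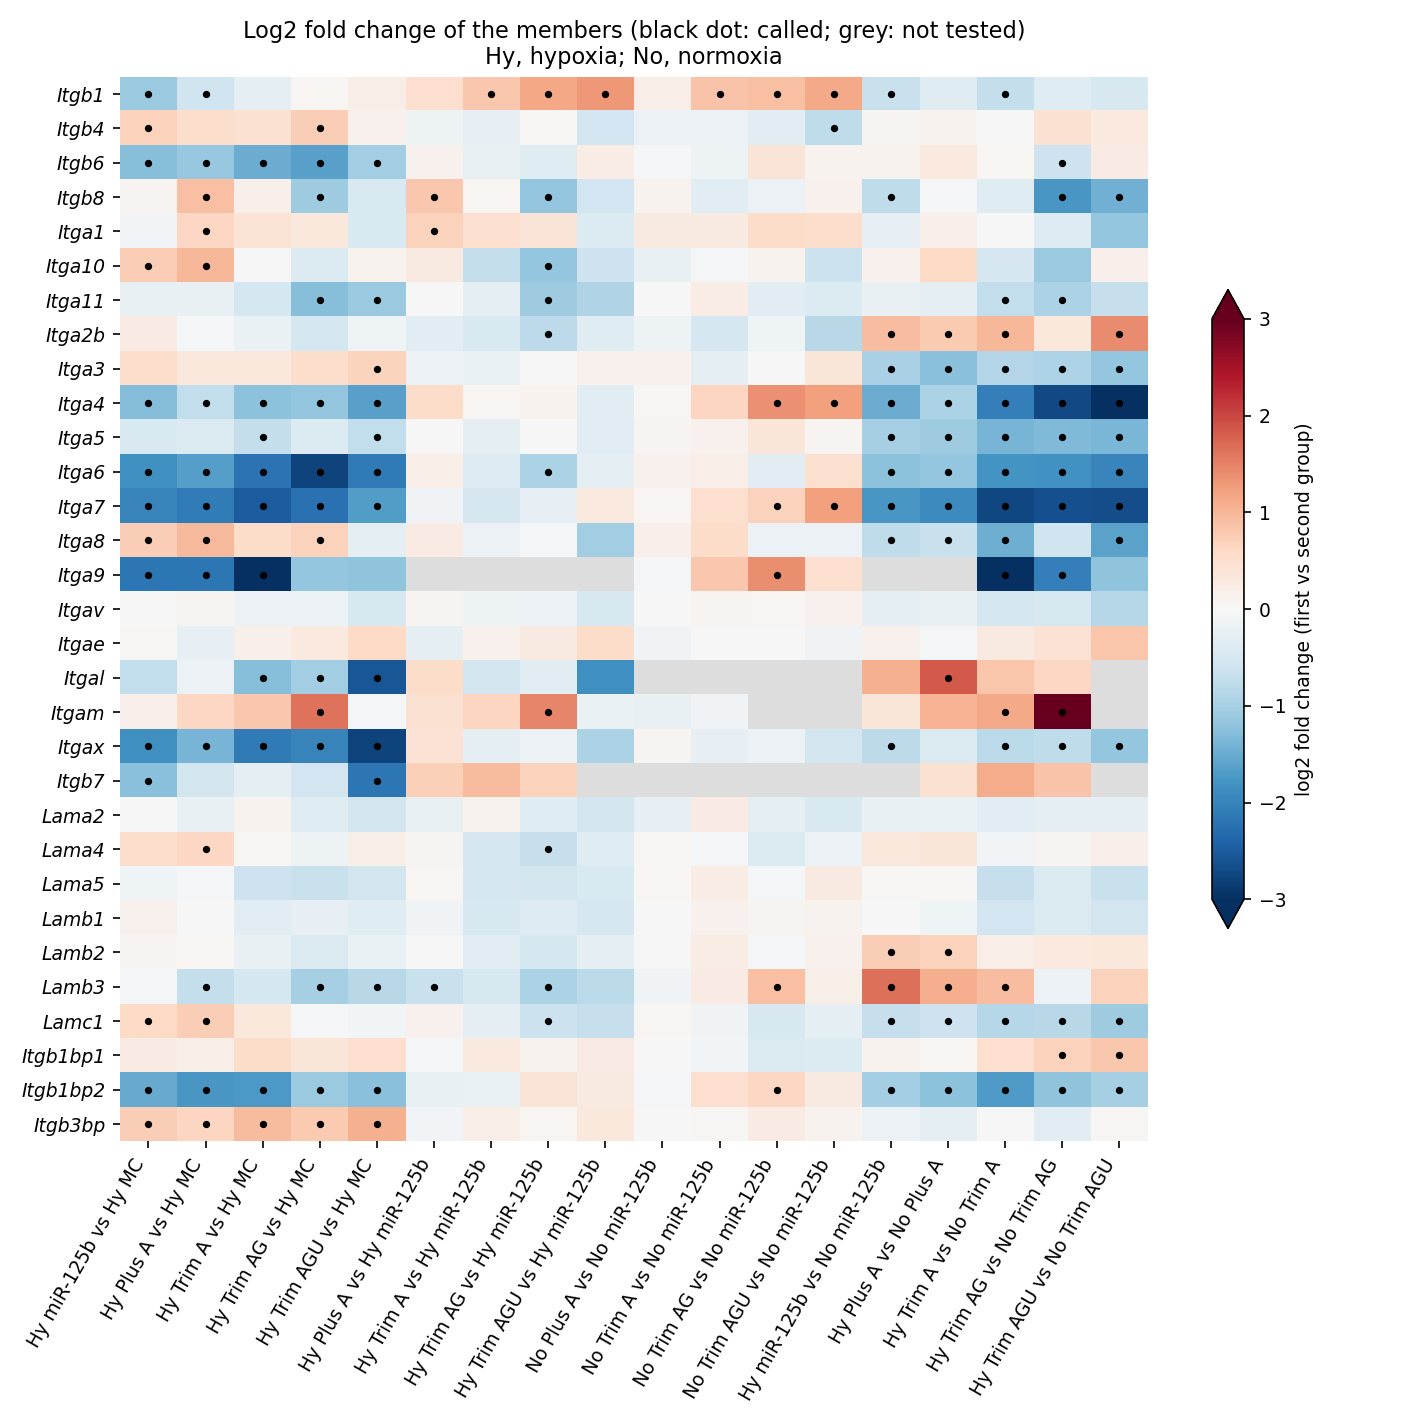
Log2 fold change (colour, -3 to 3) of the members tested in at least 11 of the 18 comparisons, with a black dot where a member was called and grey where it was not tested; *Itgb3*, *Itga2*, *Itgb2*, *Lama1* and *Lamc3* are among those not drawn. *Itga6* and *Itga7* are called in all 5 columns against MC and in all 5 columns of hypoxia against normoxia.

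*Itgb1* (19:61677542-61725535, plus strand) encodes the beta chain shared by the receptors for laminin, collagen and fibronectin. In hypoxia it was at 1709.6, 1724 and 1751 CPM with MC and at 773, 796 and 778 CPM with miR-125b. With Plus A it was at 1202, 1130.2 and 1041 CPM, for Trim A at 1394, 1341 and 1338 CPM, with Trim AG at 1714, 1767 and 1701 CPM and for Trim AGU at 1897, 1611 and 1899 CPM. The miR-125b libraries lay lowest, those of Plus A and Trim A lay between them and MC without overlap, and those of Trim AG and Trim AGU overlapped MC. It fell with miR-125b (log2 fold change -1.11 ± 0.03 SE, n = 3 per group, adjusted p = 1.46e-10) and with Plus A (-0.60 ± 0.05, 8.2e-06). The latter lay at the fold threshold, at -0.58 with the gene length trend removed and at -0.54 without replicate 3 of Hypoxia Plus A. With Trim A the difference from MC was -0.30 ± 0.06 (adjusted p = 0.00361), under the fold threshold, with Trim AG 0.06 ± 0.07 (0.43) and for Trim AGU 0.20 ± 0.11 (0.202).

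Set against miR-125b itself in hypoxia, *Itgb1* was higher for Trim A (0.80 ± 0.06, adjusted p = 0.00166), Trim AG (1.16 ± 0.07, 2.02e-05) and Trim AGU (1.29 ± 0.11, 0.00318), and these values were 0.85, 1.22 and 1.44 with the gene length trend removed. With Plus A the difference was 0.51 ± 0.05 (adjusted p = 0.00056) and stayed under the fold threshold. In order of level, the means were 782 ± 12.2 CPM (SD, n = 3) with miR-125b, 1124 ± 80.6 with Plus A, 1358 ± 31.6 for Trim A, 1728 ± 35.0 with Trim AG and 1802 ± 166 for Trim AGU, the last 2 of which overlapped. The Trim AGU call did not hold when any 1 of the miR-125b libraries was left out (adjusted p = 0.062 for replicate 1 or 2 and 0.066 for replicate 3). With the replicate number as a block, adjusted p was 0.062 for Trim A and 0.053 for Trim AGU.

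In normoxia, *Itgb1* was at 1484, 983 and 1047 CPM with miR-125b and at 1001, 1444 and 1537 CPM with Plus A, the same crossing of replicate 1 as for *Cav1*. It was at 2162, 2112 and 2095 CPM for Trim A, at 2132, 2422 and 2188 CPM with Trim AG and at 2386, 2939.7 and 2441 CPM for Trim AGU. All 9 libraries of the trimmed mimics were above all 6 of miR-125b and Plus A. Against miR-125b it was higher with Trim A (0.87 ± 0.13, adjusted p = 0.0183), Trim AG (0.89 ± 0.14, 0.001) and Trim AGU (1.14 ± 0.15, 0.000899). Without replicate 1 of Normoxia miR-125b these values were 1.07, 1.11 and 1.34. The Trim A call did not hold without any 1 library of Normoxia Trim A (adjusted p = 0.070 to 0.078). The difference between Plus A and miR-125b was 0.19 ± 0.19 (adjusted p = 0.997). Without replicate 1 of both groups it was 0.58, just under the fold threshold. That removal was chosen after seeing the data, and *Itgb1* itself showed the crossing. It takes out the values that oppose the difference, so the larger value is no separate test and is given without a p-value. *Itgb1* was lower in hypoxia than in normoxia under miR-125b (-0.67 ± 0.13, adjusted p = 0.0024) and Trim A (-0.72 ± 0.07, 7.23e-05). The miR-125b value was -0.46 without replicate 1 of Normoxia miR-125b and was then under the threshold.

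**Figure D3:**
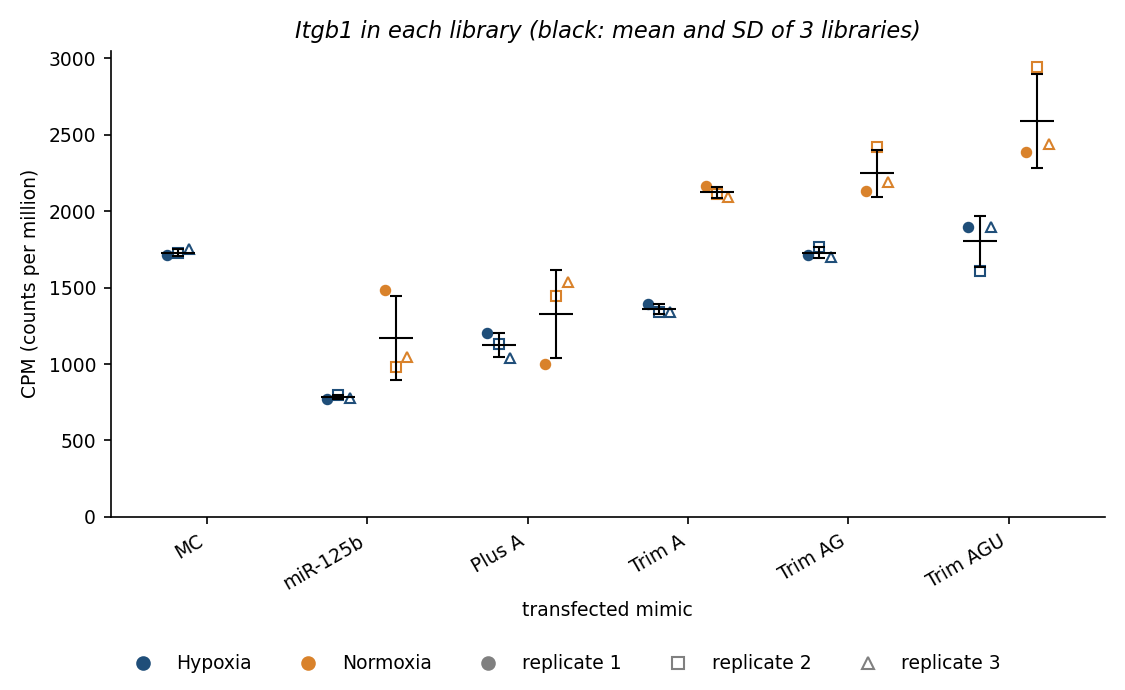
*Itgb1* in CPM in each of the 33 libraries by group, with the mean and SD of the 3 libraries. In hypoxia the 3 miR-125b libraries sit at 773 to 796 CPM, and in normoxia replicate 1 of Plus A and of miR-125b sit with the other group.

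The other beta chains were low. *Itgb6*, *Itgb8* and *Itgb4* had medians of 3.52, 5.54 and 3.39 CPM, and *Itgb3* did not exceed 0.54 CPM in any library. *Itgb6*, whose product pairs with the alpha V chain in receptors that activate TGF-beta, was at 9.22, 8.90 and 9.40 CPM in Hypoxia MC and at 2.78 to 4.55 CPM in the 15 hypoxia libraries with a mimic, without overlap. It fell with all 5 mimics, from -1.05 ± 0.18 with Trim AGU to -1.64 ± 0.13 with Trim AG (adjusted p = 0.00802 and 1.28e-05), and the Trim AGU call did not hold with the gene length trend removed (-0.73, adjusted p = 0.06).

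*Itgb8*, which encodes another partner of the alpha V chain, was at 4.46, 3.09 and 4.46 CPM in Hypoxia MC, at 7.12, 7.08 and 7.93 CPM under Plus A and at 1.99, 1.95 and 1.52 CPM with Trim AG. It rose with Plus A (0.90 ± 0.17, adjusted p = 0.000982) and fell with Trim AG (-1.07 ± 0.21, 0.00228). The 3 groups did not overlap. *Itgb4*, the hemidesmosome chain, was at 2.94, 2.69 and 2.54 CPM in Hypoxia MC, at 4.43, 3.97 and 4.42 CPM with miR-125b and at 5.11, 3.63 and 4.26 CPM with Trim AG. It rose with both (0.69 ± 0.15 and 0.73 ± 0.18, adjusted p = 0.00214 and 0.00682). The gene overlaps *Galk1* on the other strand, which had a mean of 55.4 CPM against 3.41 for *Itgb4*. In unstranded libraries, strand cannot assign reads of the shared stretch to 1 of the genes, and the extent of that stretch was not measured.

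Among the laminin-binding alpha chains, *Itga6* and *Itga7* fell and *Itga3* mostly stayed under the fold threshold against MC. *Itga7* (7:3355116-3384675, plus strand) encodes the main laminin-binding alpha chain of muscle. In hypoxia it was at 131, 131 and 138 CPM with MC, at 34.0, 32.8 and 31.0 CPM with miR-125b and at 27.8, 32.7 and 31.1 CPM with Plus A. With Trim A it was at 32.5, 15.7 and 21.0 CPM, with Trim AG at 36.8, 17.6 and 27.4 CPM and with Trim AGU at 52.4, 27.1 and 34.6 CPM. The highest mimic library, at 52.4 CPM, was below the lowest MC library, and replicate 1 of each trimmed mimic was the highest of its group. The log2 fold change was -1.998 ± 0.04 with miR-125b (adjusted p = 9.49e-11), -2.11 ± 0.06 with Plus A (7.89e-09), -2.49 ± 0.22 for Trim A (6.24e-05), -2.23 ± 0.22 with Trim AG (4.07e-05) and -1.69 ± 0.20 for Trim AGU (0.00242). With the gene length trend removed the last 3 were -2.35, -2.07 and -1.40, all still called.

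In normoxia, *Itga7* was at 111, 95.3 and 102 CPM with miR-125b, 111, 100.2 and 107 CPM with Plus A and 136, 164 and 134 CPM with Trim A. It was at 168, 191 and 151 CPM with Trim AG and 234, 238 and 257 CPM with Trim AGU. It was higher than with miR-125b with Trim AG (0.68 ± 0.09, adjusted p = 0.000487) and Trim AGU (1.24 ± 0.08, 0.000103), and the libraries did not overlap. It was lower in hypoxia under all 5 mimics, from -1.74 ± 0.07 with miR-125b to -2.73 ± 0.23 with Trim A. The sum of the muscle markers was 1129 to 1136 CPM in Hypoxia MC, 158 to 262 CPM in the hypoxia groups with a mimic and 214 to 334 CPM in normoxia. Single markers did not all follow it. *Myod1* had a mean of 63.3 CPM in Hypoxia MC and of 127 to 138 CPM in the normoxia groups. *Des* was at 1.79 against 2.30 to 4.42 CPM in the same groups. *Acta1* had means of 166 CPM in Hypoxia MC and 160.5 CPM in Hypoxia Trim AG. The part of these markers in the result for *Itga7* was not tested.

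*Itga6* (3:58443101-58515124, plus strand) encodes the alpha chain that reads laminin in most epithelial and many mesenchymal cells. In hypoxia it was at 214, 214 and 233 CPM with MC, at 57.1, 62.5 and 59.8 CPM with miR-125b and at 73.7, 67.4 and 67.1 CPM with Plus A. With Trim A it was at 56.5, 40.3 and 40.3 CPM, with Trim AG at 37.5, 24.7 and 29.6 CPM and with Trim AGU at 64.6, 28.6 and 46.9 CPM. None of the mimic libraries reached the MC libraries, and Trim AG was the lowest group. The log2 fold change ran from -1.64 ± 0.06 with Plus A (adjusted p = 2.21e-08) and -1.84 ± 0.04 with miR-125b (1.68e-10) to -2.79 ± 0.14 with Trim AG (1.56e-06). With the gene length trend removed the 3 trimmed mimics, from the longest to the shortest, were at -2.05, -2.59 and -1.80, all still called. Against miR-125b, Trim AG was lower (-0.95 ± 0.13, adjusted p = 0.000811, and -0.86 with the trend removed). In normoxia, the miR-125b libraries held 147, 124 and 125 CPM and the Trim AG libraries 95.4, 125 and 101 CPM, and *Itga6* was lower in hypoxia under all 5 mimics, from -1.15 ± 0.08 with Plus A to -1.98 ± 0.25 with Trim AGU.

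*Itga3* encodes the third of these chains. It was at 98.6, 94.5 and 99.1 CPM in Hypoxia MC, at 132, 135 and 141 CPM with miR-125b and at 191, 101 and 132 CPM with Trim AGU. Trim AGU was called against MC (0.66 ± 0.19, adjusted p = 0.0383), but not without any 1 of the MC libraries (0.12 to 0.131), without replicate 1 of Hypoxia Trim AGU (0.42, under the fold threshold) or without replicate 3 (0.066), nor with the replicate block (0.051). With miR-125b the difference was 0.52 ± 0.04, under the fold threshold, and 0.61 with the gene length trend removed, where it was called. In normoxia it was at 184 to 353 CPM in 15 libraries against 97.9 to 191 CPM in hypoxia with a mimic, and the difference between hypoxia and normoxia ran from -0.88 ± 0.13 with Trim A to -1.26 ± 0.07 with Plus A.

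**Figure D4:**
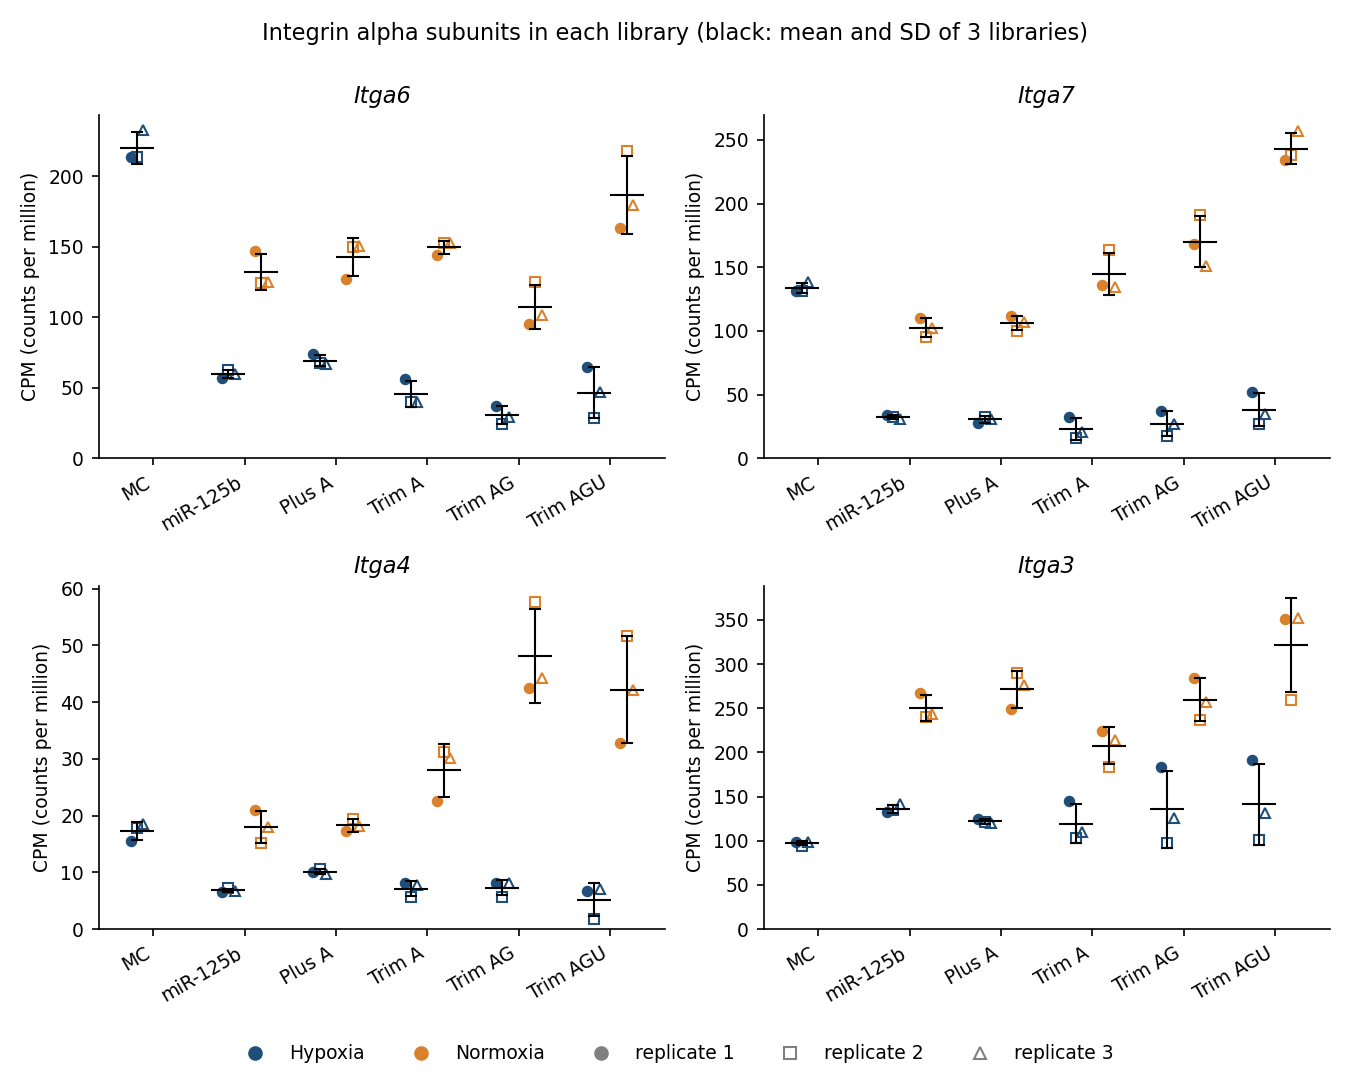
*Itga6*, *Itga7*, *Itga4* and *Itga3* in CPM in each of the 33 libraries, 1 panel per gene, with the mean and SD of each group of 3. For *Itga6* and *Itga7* the Hypoxia MC libraries (214 to 233 and 131 to 138 CPM) stand above all hypoxia libraries with a mimic, and for *Itga4* the Normoxia Trim AG and Trim AGU libraries (32.8 to 57.7 CPM) stand highest.

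*Itga4* encodes the alpha chain that binds fibronectin and VCAM. It was at 15.4, 17.8 and 18.5 CPM in Hypoxia MC, at 6.60, 7.16 and 6.72 CPM with miR-125b, 10.1, 10.6 and 9.71 CPM with Plus A and 8.05, 5.604 and 7.71 CPM with Trim A. It was at 8.04, 5.73 and 8.16 CPM with Trim AG and at 6.72, 1.82 and 7.05 CPM with Trim AGU. All mimic groups lay below MC, and the Plus A libraries lay above those of miR-125b. The log2 fold change against MC was -1.30 ± 0.10 with miR-125b (adjusted p = 7.18e-07), -0.74 ± 0.10 with Plus A (9.57e-05), -1.23 ± 0.15 for Trim A (0.00031), -1.18 ± 0.15 with Trim AG (0.000181) and -1.62 ± 0.43 for Trim AGU (0.0303). With the gene length trend removed the trimmed mimics were at -1.16, -1.11 and -1.51. The Trim AGU difference was not called without any 1 of the MC libraries (adjusted p = 0.081 to 0.099) or without replicate 3 of Hypoxia Trim AGU (0.055).

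In normoxia *Itga4* was highest with Trim AG and Trim AGU. Libraries held 20.9, 15.1 and 18.0 CPM with miR-125b, 42.5, 57.7 and 44.2 CPM with Trim AG and 32.8, 51.6 and 42.1 CPM with Trim AGU. The last 2 groups were higher without overlap (1.38 ± 0.15 and 1.22 ± 0.17, adjusted p = 0.000111 and 0.00109). The difference between hypoxia and normoxia was -0.96 ± 0.10 with Plus A, -1.48 ± 0.13 with miR-125b, -2.05 ± 0.17 for Trim A, -2.71 ± 0.16 with Trim AG and -3.01 ± 0.44 for Trim AGU. *Itga9*, whose chain is the closest relative of that of *Itga4*, reached at most 29 counts in a library (0 to 1.01 CPM). It fell against MC with Trim A (-3.19 ± 0.62, adjusted p = 0.00304), and also with miR-125b and Plus A (-2.16 and -2.17), where the calls did not hold without replicate 3 of Hypoxia MC (adjusted p = 0.101 and 0.166) and without several other single libraries. Libraries held 10 to 23 counts of *Itga9* in Hypoxia MC and 0 to 9 with these mimics. It was therefore tested through the MC libraries, and a call could only be a fall.

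*Itga5* encodes the alpha chain of the fibronectin receptor, and *Itgav*, *Itga8* and *Itga2b* other RGD-reading chains. *Itga5* was at 328, 338 and 337 CPM in Hypoxia MC, at 235, 243 and 239 CPM with miR-125b, at 253, 165 and 174 CPM with Trim A and at 242, 148 and 156 CPM with Trim AGU. It fell with Trim A (-0.72 ± 0.14, adjusted p = 0.00375) and Trim AGU (-0.75 ± 0.17, 0.0204). With miR-125b the difference was -0.45 ± 0.03, under the fold threshold. The Trim AGU value was -0.49 with the gene length trend removed and was not called without any 1 of the MC libraries (adjusted p = 0.075 to 0.081) or without replicate 3 of Hypoxia Trim AGU (0.062). In normoxia all 15 libraries were at 429 to 611 CPM, above every hypoxia library, and the difference between hypoxia and normoxia ran from -0.999 ± 0.05 with miR-125b to -1.39 ± 0.15 with Trim A.

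*Itgav* was at 158 to 229 CPM except in replicates 2 and 3 of the trimmed mimics in hypoxia, which held 28.4 to 147 CPM. Its difference from MC lay between -0.48 ± 0.54 and 0.07 ± 0.06, and it was not called in any comparison. *Itga8* was at 5.55, 5.47 and 4.77 CPM in Hypoxia MC, 7.60, 9.94 and 8.04 CPM with miR-125b, 10.1, 11.5 and 8.96 CPM with Plus A and 9.18, 5.93 and 9.33 CPM with Trim AG. It rose with these 3 mimics (0.73 ± 0.14, 0.98 ± 0.13 and 0.69 ± 0.19, adjusted p = 0.000864, 0.000145 and 0.0117). In normoxia it was at 8.87 to 21.2 CPM, and it was lower in hypoxia under 4 of the 5 mimics, all but Trim AG (with Plus A -0.67 ± 0.14, and -0.55 without replicate 3 of Normoxia Plus A). *Itga2b*, the platelet chain, was the reverse: hypoxia libraries with a mimic held 1.31 to 3.19 CPM and normoxia libraries 0.41 to 1.58 CPM, and it was higher in hypoxia under 4 mimics, all but Trim AG, by 0.78 ± 0.23 to 1.43 ± 0.44. The calls under Plus A, Trim A and Trim AGU were each lost when a single library was left out.

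Of the collagen receptors, *Itga11*, which encodes the chain of mesenchymal cells that reads fibrillar collagen, was the most abundant. It was at 453, 491 and 513 CPM in Hypoxia MC, at 385, 403 and 433 CPM with miR-125b, at 448, 255 and 285 CPM for Trim A, at 257, 139 and 185 CPM with Trim AG and at 296, 146 and 178 CPM for Trim AGU. Trim AG and Trim AGU were below all MC libraries, and in each trimmed group replicate 1 was the highest. It fell with Trim AG (-1.27 ± 0.19, adjusted p = 0.000427) and Trim AGU (-1.10 ± 0.23, 0.0136), and these values were -1.12 and -0.84 with the gene length trend removed. The 5 fibroblast markers, most of which is *Col1a1*, summed to 17820 to 18470 CPM in Hypoxia MC and 28620 to 30330 with miR-125b. The sum was 6382 to 13410 CPM with Trim AG and 10680 to 19640 with Trim AGU. *Thy1* went the other way, with means of 93.0 CPM in Hypoxia MC, 113 with Trim AG and 110 with Trim AGU. *Dcn* had means of 42.2 CPM in Hypoxia MC and 12.65 with miR-125b, where the sum was higher. The part of these markers in the result was not tested. The Trim AGU call did not hold without replicate 2 or 3 of Hypoxia MC (adjusted p = 0.057 and 0.061) or replicate 3 of Hypoxia Trim AGU (0.053). Against miR-125b, Trim AG was lower in hypoxia (-1.06 ± 0.18, adjusted p = 0.00259). In normoxia the difference was -0.32 ± 0.06, under the fold threshold, with libraries at 451, 438 and 461 CPM with miR-125b and at 349, 398 and 368 CPM with Trim AG.

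*Itga1* encodes a chain that reads basement membrane collagen. It was at 10.3, 11.2 and 12.4 CPM in Hypoxia MC, 8.66, 11.9 and 10.8 CPM with miR-125b and 16.4, 18.1 and 16.6 CPM with Plus A. Plus A was above both groups without overlap (0.62 ± 0.09 against MC and 0.69 ± 0.11 against miR-125b, adjusted p = 0.000288 and 0.00537). The first fell under the fold threshold without replicate 1 of Hypoxia MC (0.55) or replicate 2 of Hypoxia Plus A (0.57), and the second without replicate 1 of Hypoxia miR-125b (0.57). *Itga1* overlaps *Pelo* on the same strand, which had a mean of 87.6 CPM against 13.5. *Itga10*, a cartilage chain, was at 0.83, 0.97 and 1.34 CPM in Hypoxia MC, 1.58, 1.90 and 1.58 CPM with miR-125b and 2.01, 2.46 and 1.68 CPM with Plus A. It rose with both (0.73 ± 0.24 and 0.99 ± 0.26, adjusted p = 0.0211 and 0.00785), and the first did not hold without replicate 1 or 2 of Hypoxia MC or replicate 2 of Hypoxia miR-125b (adjusted p = 0.077, 0.057 and 0.079). *Itga2*, the remaining collagen chain, had 0 to 9 counts in a library.

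Leukocyte subunits were low, and the markers of those cells were near 0: *Ptprc*, which encodes the pan-leukocyte protein CD45, was at 0 to 0.19 CPM, *Lyz2* at 0 to 0.33 CPM and *Cd3e* at 0.13 to 0.85 CPM. *Cd68* was at 0.49 to 2.43 CPM and *Cd14*, which other cells also express, at 10.6 to 22.3 CPM. The 5 markers together, most of which is *Cd14*, were at 22.9 to 24.5 CPM in Hypoxia MC and at 12.5 to 21.1 CPM in the hypoxia groups with a mimic. *Itgb2*, the beta chain that *Itgal*, *Itgam* and *Itgax* need for a receptor on leukocytes, had 0 to 2 counts per library. *Itgax* was at 14.0, 15.5 and 12.5 CPM in Hypoxia MC and at 1.32 to 5.77 CPM in the 15 hypoxia libraries with a mimic. It fell with all 5, from -1.41 ± 0.12 with Plus A (adjusted p = 7.18e-06) and -1.84 ± 0.15 with miR-125b (1.16e-06) to -2.78 ± 0.25 with Trim AGU (0.000937), and the part of the lower leukocyte marker sum in this was not tested.

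*Itgam*, the alpha chain of the complement receptor, overlaps *Itgax* on the same strand. It was at 0.30, 0.60 and 0.41 CPM in Hypoxia MC, 0.62, 0.55 and 0.26 CPM with miR-125b and 1.28, 1.55 and 1.05 CPM with Trim AG, and at 0, 0.07 and 0.20 CPM in Normoxia Trim AG. Hypoxia Trim AG was above the other hypoxia groups, by 1.62 ± 0.33 against MC and 1.47 ± 0.35 against miR-125b (adjusted p = 0.00259 and 0.0109). *Itgal* was at 1.62, 1.11 and 1.37 CPM in Hypoxia MC, 0.74, 0.19 and 0.70 CPM for Trim A, 0.68, 0.38 and 0.84 CPM with Trim AG and 0.19, 0.31 and 0.12 CPM for Trim AGU. It fell with these 3 mimics (-1.28, -1.04 and -2.56), and the first 2 did not hold without replicate 1 of Hypoxia MC (adjusted p = 0.11 and 0.084). *Itgb7* did not exceed 1 CPM and fell with miR-125b and Trim AGU (-1.26 and -2.16), neither of which held when any 1 of several libraries was left out. Libraries held 11 to 29 counts of *Itgb7* in Hypoxia MC, 7 to 10 with miR-125b and 1 to 7 with Trim AGU. Those of *Itgal* held 33 to 49 in Hypoxia MC and 4 to 10 with Trim AGU. Both were tested there through the MC libraries, so these calls could only be falls. *Itgae* was at 5.32 to 17.8 CPM, was not called, and overlaps more abundant genes such as *Atp2a3* (27.2 CPM).

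Of the laminin chains, *Lamc1* (13:70656727-70783515, minus strand) encodes the gamma chain present in most laminins. In hypoxia it was at 651, 663 and 702 CPM with MC, at 976, 1007 and 991 CPM with miR-125b and at 1092, 1106 and 1087 CPM with Plus A. With Trim A it was at 1147, 624 and 668 CPM, with Trim AG at 857, 424 and 601 CPM and with Trim AGU at 882, 325 and 548 CPM. The libraries with miR-125b and Plus A were above MC without overlap, and each trimmed group held 1 library above all MC libraries and at least 1 below them. *Lamc1* rose with miR-125b (0.60 ± 0.03, adjusted p = 3.99e-08) and Plus A (0.73 ± 0.04, 3.52e-07). The first was 0.57 without replicate 1 of Hypoxia MC, under the fold threshold, and 0.75 with the gene length trend removed.

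In normoxia *Lamc1* was at 1458 to 1572 CPM with miR-125b and Plus A and at 1078 to 1468 CPM with the trimmed mimics. It was lower in hypoxia under all 5 mimics, by -0.69 ± 0.04 with miR-125b, -0.62 ± 0.05 with Plus A, -0.85 ± 0.20 for Trim A, -0.84 ± 0.20 with Trim AG and -1.07 ± 0.29 for Trim AGU. The last was -0.65 with the gene length trend removed and was not called without replicate 1, 2 or 3 of Normoxia Trim AGU or replicate 3 of Hypoxia Trim AGU (adjusted p = 0.072 to 0.095).

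*Lamb3*, a beta chain of epithelial laminins, was at 10.3, 9.27 and 11.2 CPM in Hypoxia MC, 8.90, 9.58 and 10.4 CPM with miR-125b and 5.08, 6.98 and 6.34 CPM with Plus A. With Trim AG it was at 6.27, 3.23 and 5.30 CPM and with Trim AGU at 6.38, 4.36 and 4.93 CPM. The miR-125b libraries overlapped MC, and those of Plus A, Trim AG and Trim AGU were lower. It fell against MC with these 3 (-0.72 ± 0.14, -0.99 ± 0.22 and -0.84 ± 0.18, adjusted p = 0.0014, 0.00405 and 0.0148), and the Trim AGU call did not hold without any 1 of the MC libraries (0.054 to 0.078). In normoxia the miR-125b libraries held 2.88, 3.27 and 2.50 CPM, so that *Lamb3* was higher in hypoxia under miR-125b (1.66 ± 0.15, adjusted p = 1.65e-05), as it was under Plus A (1.08 ± 0.17) and Trim A (0.93 ± 0.25, not called without replicate 3 of Normoxia Trim A, adjusted p = 0.06).

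*Lamb2*, the beta chain concentrated at muscle and nerve junctions, was at 417, 441 and 438 CPM in Hypoxia miR-125b and 236, 239 and 261 CPM in Normoxia miR-125b, and at 401, 446 and 448 CPM against 273, 235 and 238 CPM with Plus A. It was higher in hypoxia with both (0.73 ± 0.05 and 0.69 ± 0.07, adjusted p = 3.33e-06 and 3.39e-05). Under the trimmed mimics the difference was 0.21 to 0.33, with 1 library of each hypoxia group at 403 to 477 CPM and the other 2 at 209.7 to 299 CPM. With the gene length trend removed these differences were 0.39, 0.49 and 0.72. *Lama4*, the alpha chain of vascular and mesenchymal laminins, was at 117, 118 and 119 CPM in Hypoxia MC and at 189, 183 and 166 CPM with Plus A. It rose with Plus A (0.62 ± 0.05, adjusted p = 6.51e-06, and 0.58 without replicate 1 of Hypoxia Plus A). With miR-125b the libraries held 161, 165 and 173 CPM, a difference of 0.53 ± 0.03 that stayed under the fold threshold and reached 0.64 with the gene length trend removed.

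*Lama5* and *Lamb1* encode the alpha and beta chains that pair with *Lamc1* in broadly expressed laminins, and neither was called. *Lama5* was at 774, 746 and 852 CPM in Hypoxia MC, 668, 732 and 731 CPM with miR-125b and 787, 274 and 424 CPM with Trim AGU. Its difference between Trim AGU and MC was -0.56 ± 0.32 (adjusted p = 0.22) and -0.09 with the gene length trend removed. *Lamb1* was at 421, 433 and 461 CPM in Hypoxia MC and at 437, 208 and 297 CPM with Trim AGU, a difference of -0.36 ± 0.22 that became -0.05. In the other groups *Lamb1* stayed at 425 to 510 CPM except in replicates 2 and 3 of Hypoxia Trim A and Trim AG (245 to 335 CPM). The merosin chain *Lama2*, which predominates in adult muscle, was at 0.35 to 1.46 CPM and was not called, and *Lama1* had 0 to 3 counts per library.

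**Figure D5:**
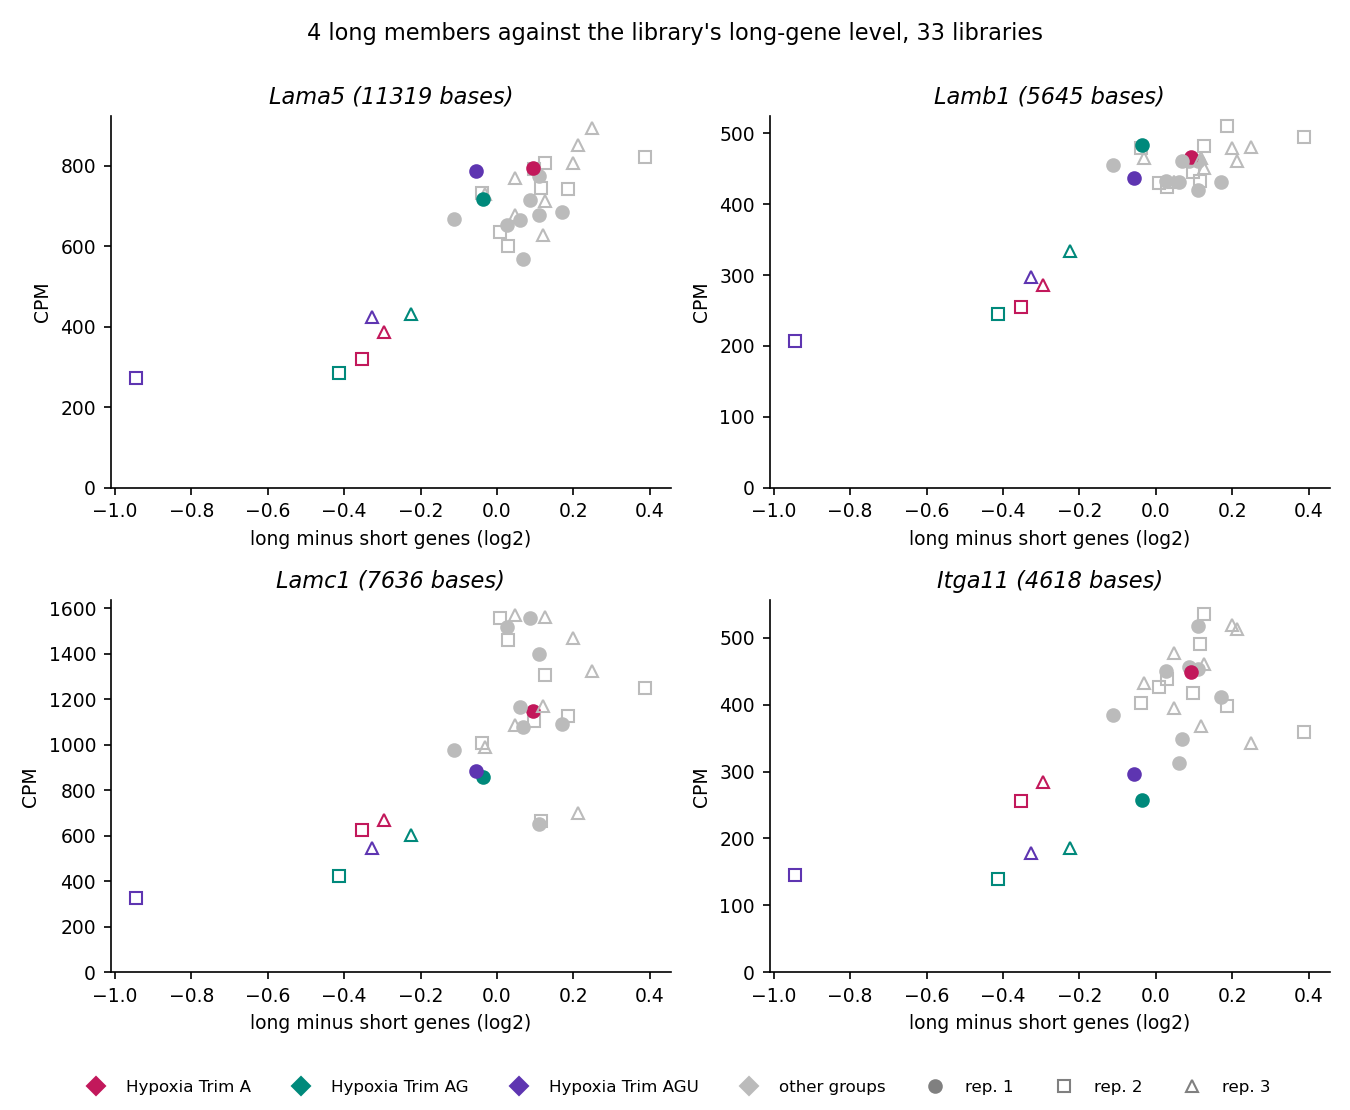
*Lama5*, *Lamb1*, *Lamc1* and *Itga11* in CPM against the median log2 level of long genes (at least 5000 bases) less that of short genes (at most 2000 bases), 1 point per library, 33 libraries. The libraries farthest to the left are replicates 2 and 3 of Hypoxia Trim A, Trim AG and Trim AGU, where *Lama5* is at 274 to 431 CPM.

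The binding proteins differed in direction. *Itgb1bp2* encodes melusin, a muscle protein that binds the tail of the *Itgb1* chain. It was at 7.54, 6.08 and 7.17 CPM in Hypoxia MC, 2.17, 2.26 and 2.62 CPM with miR-125b, 1.80, 2.12 and 2.14 CPM with Plus A and 1.49 to 3.53 CPM under the trimmed mimics. It fell with all 5, from -1.12 ± 0.17 with Trim AG to -1.75 ± 0.16 with Plus A (adjusted p = 0.000514 and 9.4e-06), and the sum of the muscle markers differed between the same groups as given above for *Itga7*. In normoxia it was at 3.60, 4.66 and 5.21 CPM with miR-125b and 6.95, 7.60 and 6.74 CPM with Trim AG, a rise of 0.62 ± 0.16 (adjusted p = 0.0135) that became 0.48 without replicate 1 of Normoxia miR-125b and 0.56 without replicate 2 of Normoxia Trim AG. Under Trim AGU the difference between hypoxia and normoxia (-0.9996 ± 0.23, adjusted p = 0.0163) did not hold without any 1 library of Normoxia Trim AGU (0.0504 to 0.066) or with the replicate block (0.058).

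*Itgb3bp*, which encodes a centromere protein first found as a partner of the *Itgb3* chain, was at 7.31, 6.21 and 7.83 CPM in Hypoxia MC and at 8.98 to 18.4 CPM in the 15 hypoxia libraries with a mimic. It rose with all 5, from 0.65 ± 0.13 with Plus A (adjusted p = 0.00176) and 0.73 ± 0.13 with miR-125b (0.000437) to 1.05 ± 0.32 with Trim AGU (0.0446). The Plus A call fell under the fold threshold without replicate 2 of Hypoxia MC (0.56) or replicate 1 of Hypoxia Plus A (0.55), and the Trim AGU call did not hold without any 1 of the MC libraries (adjusted p = 0.12 to 0.15) or with the replicate block (0.079). It overlaps *Efcab7* on the other strand (15.0 CPM against 12.2). *Itgb1bp1*, which encodes ICAP, a cytoplasmic inhibitor of the *Itgb1* chain, was at 75.5, 79.6 and 83.0 CPM in Hypoxia MC and was not called against it. It was at 60.8, 59.95 and 62.0 CPM in Normoxia Trim AG against 85.7, 109 and 98.5 CPM in hypoxia (0.69 ± 0.10, adjusted p = 0.00044), and at 59.6, 61.4 and 60.3 CPM in Normoxia Trim AGU against 87.8, 116 and 101 CPM (0.81 ± 0.17, 0.0117). Both were under the fold threshold with the gene length trend removed (0.56 and 0.55), and the second did not hold without replicate 1 or 3 of Normoxia Trim AGU (adjusted p = 0.0504 and 0.060).

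Whether an isomiR differed from miR-125b by another amount in hypoxia than in normoxia was tested as an interaction. With Trim AG 8 of 32 members were called: for *Itgam* the hypoxia difference was the higher one, and for *Itga4*, *Itga6*, *Itga7*, *Itga11*, *Itgb6*, *Itgb8* and *Lamb3* the lower one, so 1 was higher (4.29% of all genes) and 7 lower (6.97%). The *Itgb8* call was lost in 14 of 18 alternatives and the *Itga6* call in 11, the removal of the gene length trend included in both. The change was -1.27 ± 0.22 for *Itga4* (adjusted p = 0.00171), -1.87 ± 0.28 for *Lamb3* (0.000737) and -0.94 ± 0.25 for *Itga7* (0.0175). *Lamb3* showed it in its levels: Trim AG was at 3.23 to 6.27 CPM in hypoxia and 5.37 to 5.87 CPM in normoxia, while miR-125b was at 8.90 to 10.4 CPM in hypoxia and 2.50 to 3.27 CPM in normoxia. With Plus A 0 of 32 members were called (0.0193% of all genes), with Trim A 0 of 32 (0.605%) and with Trim AGU 0 of 31 (0.966%). At an unadjusted p below 0.05 there were 4, 12 and 8 members in these 3, and DESeq2 called 0, 3 and 4. For *Itgb1* the interaction was 0.31 ± 0.23 with Plus A, -0.05 ± 0.16 for Trim A, 0.26 ± 0.17 with Trim AG and 0.19 ± 0.21 for Trim AGU, none of which was called.

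Genes that work with integrins were described from lists chosen with earlier results of these data known. The values of all lists were taken without removal of the gene length trend. Replicates 2 and 3 of the trimmed mimics in hypoxia held less signal from long genes. Of 22 genes of integrin adaptors and focal adhesions, 21 were tested. Against MC in hypoxia miR-125b had 1 higher, *Lims2* (0.71), and 4 lower, among them the kinase gene *Ptk2b* (-1.28), *Lims1* (-0.91) and the talin gene *Tln2* (-0.67), where 9.43% and 12.5% of all genes were called. Trim AG against miR-125b in hypoxia had 7 of 21 higher and 2 lower (7.85% and 11.5% of all genes), with a list median of 0.40 where that of all genes was 0.00. Hypoxia against normoxia had 1 of 21 higher and 7 to 11 lower under each mimic (9.34% to 15.0% and 11.5% to 17.8% of all genes), with list medians of -0.36 to -0.60 where those of all genes were 0.00 to 0.02.

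Of 5 tetraspanin genes, whose products sit beside integrins in the membrane, 4 were tested. With miR-125b against MC *Cd151* was higher (4.29) and *Cd81* lower (-0.68), and *Cd81* was lower with the other 4 mimics as well (-0.62 to -0.86). Of the 4 genes, 1 was higher with Trim A and with Trim AG and 0 with Plus A and with Trim AGU. Over the 5 mimics 9.43% to 17.0% of all genes were higher and 12.4% to 20.2% lower. Of 10 genes of other integrin ligands and the basement membrane, 8 were tested. With miR-125b against MC 1 was higher, the nidogen gene *Nid2* (0.59), and 4 were lower: *Tnc* (-1.76), *Thbs2* (-0.73), *Agrn* (-0.68) and *Fn1* (-0.59), the fibronectin gene, beside 9.43% and 12.5% of all genes. The list median was -0.57 to -1.30 against MC over the 5 mimics, where that of all genes was -0.02 to 0.00. Trim AG against miR-125b in hypoxia had 0 of 8 higher and 4 lower (7.85% and 11.5% of all genes), with *Thbs2* (-2.87) and *Agrn* (-2.20) the largest. These values, too, were taken without removal of the gene length trend.

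The dystrophin–glycoprotein complex and the laminin receptor *Bcam* read laminin without integrins, and all 9 of their genes were tested. Against MC in hypoxia 0 were higher with any mimic, and 3 were lower with miR-125b and 4 with each isomiR, where 9.43% to 17.0% of all genes were higher and 12.4% to 20.2% lower. With miR-125b the lower genes included the sarcoglycan gene *Sgcb* (-2.16) and *Bcam* (-1.75). *Dag1*, which encodes the laminin-binding dystroglycan, was lower with each isomiR (-0.64 with Trim A to -2.44 with Trim AGU), and in hypoxia Trim AG was below miR-125b (-1.64). The values with the trimmed mimics were again taken without removal of the gene length trend. Sarcoglycans are best known from muscle, and the sum of the muscle markers differed between these groups as given for *Itga7*.

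Values near the limits of the naming rule complete the account. *Itgb5*, which encodes a further beta chain that pairs with alpha V, is annotated as a processed transcript in the tables and so is no member. It was at 189, 186 and 201 CPM in Hypoxia MC and at 102, 100.1 and 99.1 CPM with miR-125b, and the other hypoxia groups held 38.4 to 126 CPM and all normoxia groups 207 to 427 CPM. In normoxia the authors' group means, given without libraries, set Plus A against MC: *Itgb1* had a mean of 39529.8 against 68779, *Itga7* 3154 against 12802, *Itga6* 4247 against 9636 and *Lamc1* 46424 against 27822 on the authors' normalized scale. These means are lower for the first 3 and higher for *Lamc1* with Plus A, come without an SD, and were not tested.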

How the data were processed

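RNA of H9C2 cells was sequenced from unstranded poly-A libraries. The submitters' processing notes name HISAT2 and StringTie, and the genome build is not given in the sources used here, so coordinates stand as the tables give them. The authors deposited 12 tables, each for a pair of groups, of which 11 hold raw read counts per gene and library together with the authors' FPKM (a count scaled by gene length and library total). In the remaining table, the authors gave group means as a normalized expression signal from DESeq2 1.20.0, without libraries. Columns of the authors' own comparisons (fold changes and p-values) were not used. Counts of libraries present in several tables had 0 conflicts, and replicates differed by more than sampling noise.

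Each pair of groups was fitted on the deposited counts with edgeR 4.0.16 in R 4.3.3 (TMM factors, filterByExpr, quasi-likelihood test), each on its own 6 libraries, and each interaction on 12. Calls needed an adjusted p below 0.05 (Benjamini-Hochberg, over all genes tested) together with a fold change of at least 1.5. CPM is the count scaled to a common library total, without TMM factors. Standard errors of log2 fold changes were taken from the test statistic.

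Alternatives were DESeq2 1.42.0, RLE factors, no filter, 1 fit of all libraries, a block on the replicate number, and each library left out in turn. An offset that removes the lowess trend of each library over gene length (span 0.3), and leaving out replicate 1 of Normoxia Plus A and Normoxia miR-125b were chosen after seeing the data. Tested on simulated counts of Hypoxia miR-125b and Hypoxia MC (14961 genes, 200 of them changed 3-fold), the test recovered 91.2% of the changed genes, and 5.59% of its calls were false. For the Trim AG interaction (15363 genes) it recovered 75.7%, and 3.57% of its calls were false. The simulated libraries had no gene length trend and no library that stands apart. Their changes were larger than the 1.5-fold threshold and fewer than in the data, where 1428 genes were higher and 1886 lower with miR-125b. These rates show how the test behaves in that setting and do not carry over to the calls given here.

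The members and the gene lists were chosen with earlier results of these data known. Members are named except where an item is not reported here, values per library are given for called members with a mean of at least 1 CPM in some group, and up to 4 called genes are named per list. The labels give the isomiRs in short form ("A" and trims of 1 to 3 bases), which are called here by the bases added or removed. Figures were drawn with matplotlib 3.10.9 in Python 3.11.15.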

Additional observations from a re-analysis of the deposited data

Results flagged for a closer look

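In 8 members, the difference between Trim AG and miR-125b was of another size in hypoxia than in normoxia, by edgeR's interaction test on 12 libraries. The log2 difference of the 2 differences, hypoxia less normoxia, was -1.87 for *Lamb3*, -1.27 for *Itga4*, -1.02 for *Itgb8*, -0.94 for *Itga7*, -0.77 for *Itgb6*, -0.75 for *Itga11*, -0.62 for *Itga6* and 3.39 for *Itgam*. *Itgam* rests on at most 62 counts in a library, with 0, 2 and 6 counts in Normoxia Trim AG. Its highest counts are in Hypoxia Trim AG, the group with the deepest libraries. It also overlaps *Itgax* on the same strand, which had a mean of 5.38 CPM against 0.47 for *Itgam*. The calls of *Lamb3*, *Itga4*, *Itga7* and *Itgam* held under every alternative run. Of 18 alternatives that are distinct fits, the call of *Itgb8* was lost in 14, that of *Itga6* in 11, that of *Itga11* in 5 and that of *Itgb6* in 4. For example, *Itga6* was -0.46 and *Itgb8* -0.92 (adjusted p = 0.067) with the gene length trend removed, *Itga11* was -0.73 with all libraries in 1 fit (adjusted p = 0.053), and *Itgb6* was -0.73 with no filter (0.071). Replicates 2 and 3 of Hypoxia Trim AG held less signal from long genes than replicate 1, and the part of this in the interaction of *Itga11* and *Itga7* was not tested beyond the removal of the gene length trend.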

How the results depend on the processing

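Of 178 calls of a member in a comparison or an interaction, 126 held under every alternative, 52 did not hold under at least 1, and none turned its direction. The number of members called moved as follows. With all libraries in 1 fit it went from 3 to 0 for Hypoxia Plus A against miR-125b, 1 to 7 for Hypoxia Trim AGU against miR-125b, 13 to 20 for Trim AGU in hypoxia against normoxia, and 8 to 5 and 0 to 5 for the Trim AG and Trim AGU interactions. With DESeq2 it went from 1 to 5 for Hypoxia Trim AGU and 1 to 2 for Normoxia Trim A against miR-125b, and from 0 to 3 and 0 to 4 for the Trim A and Trim AGU interactions. With no filter it went from 1 to 2 for Normoxia Trim A, 0 to 1 for the Trim A interaction and 8 to 5 for the Trim AG interaction. With the gene length trend removed it went from 1 to 2 for Hypoxia Trim AGU against miR-125b and from 0 to 1 for the Trim A interaction. Without replicate 1 of Normoxia Plus A and Normoxia miR-125b it went from 1 to 3 for Normoxia Trim A. Leaving out each library in turn gave 7 to 16 for Hypoxia Trim AGU against MC, 10 to 16 for Hypoxia Trim A against MC, 1 to 4 for Hypoxia Plus A, 1 to 8 for Hypoxia Trim A, 7 to 14 for Hypoxia Trim AG and 0 to 10 for Hypoxia Trim AGU against miR-125b, 0 to 3 for Normoxia Trim A, 8 to 15 for Trim AGU in hypoxia against normoxia, and 0 to 10, 4 to 14 and 0 to 11 for the Trim A, Trim AG and Trim AGU interactions. The cause of these shifts was not tested.

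Within the 18 comparisons, libraries of the same number did not deviate together (correlations of -0.16 to 0.08, with no comparison in which every pair was over 0.1). No comparison sets 2 trimmed mimics against each other. In hypoxia, replicates 2 and 3 of Trim A, Trim AG and Trim AGU all held less signal from long genes. Whether libraries of the same number belong together across these groups was not tested. With the replicate number as a block the count went from 1 to 0 for Hypoxia Trim A and for Hypoxia Trim AGU against miR-125b, and otherwise stayed within 1.5 times, such as 15 for Hypoxia miR-125b and 17 for Hypoxia Plus A against MC and 7 for the Trim AG interaction. Members with fewer than 1 CPM rest on few counts.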
